A study of Homo sapiens with 12 samples.

Results

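The 9 genes described here encode the enzymes that move carbon and nitrogen between glutamine, glutamate, aspartate and malate: GOT1, GOT2, GLUD1, GLUL, MDH1, MDH2, ME1, ME2 and GPT2. They were picked by gene name, with no measured value in the rule, from the 20212 genes whose ribosome footprint (RF) and total RNA reads were counted, and all 9 were among the 13329 genes with enough counts to be tested. The cells were PANC-1, an established human pancreatic cancer cell line, treated with DMSO or with rapamycin at 50 nM for 60 min. Rapamycin inhibits mTORC1, the kinase complex that couples nutrient supply to protein synthesis, and the comparison asked how the drug changed ribosome occupancy relative to mRNA. There were 3 replicates per treatment in RF and 3 in total RNA, 12 libraries in all. An RF and a total RNA library with the same number are taken here as 1 culture, by their labels alone. Both groups were grown in DMEM with serum and glutamine, so glutamine was present throughout, and the study states that PANC-1 cells lack the 4EBP1 protein. A single cell line was profiled. The labels do not say how the cultures of a group were separated, so the p-values measure the spread between these samples, which may be technical.

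Many pancreatic cancer cells take up glutamine as a source of carbon and nitrogen. In the mitochondrion glutaminase releases glutamate, which either GLUD1 or a transaminase such as GOT2 or GPT2 turns into 2-oxoglutarate; GOT2 makes aspartate in the same step. Aspartate leaves for the cytosol, where GOT1 makes oxaloacetate from it, MDH1 reduces that to malate, and ME1 oxidizes malate to pyruvate while forming NADPH. MDH2 and ME2 act on malate inside the mitochondrion. GOT1, GOT2, MDH1 and MDH2 are the enzymes of the malate-aspartate shuttle, which together with mitochondrial carriers moves reducing equivalents between the compartments.

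Some mRNAs whose translation depends on mTORC1 begin with a C followed by a run of pyrimidines, the terminal oligopyrimidine (TOP) motif, so the first 25 bases of the members' transcripts were read from the annotation of GRCh37. The start was that of the coding isoform with the highest mean FPKM (fragments scaled by transcript length and library depth) among isoforms found in the annotation. The isoforms found together held 81.4% of the FPKM of GLUD1 and 29.2% of that of MDH1. The isoform used held 95.9% of that part in GLUD1 and 61.5% in MDH1. In ME2 and GLUL the isoform used held 42.6% and 19.8%, so most of their FPKM came from other isoforms. Capitals mark a TOP motif (C as the first base and at least 4 more pyrimidines) or a TOP-like run (at least 5 pyrimidines in a row beginning within the first 4 bases). Shown are the 3 members with such a run, and the cytosolic partners of GOT2 and MDH2, which have none.
GLUD1: CTCCCTagtcgcggggagtctgaga
GOT2: aCCTTCagcaggagccggttccctg
MDH2: aCTTCCCCgtcaccagctcctgtgc
GOT1: agacctgacctgccagctccgggcg
MDH1: gagtcagttccgcggtagaggtgac
These bases lie at chr10:88854576-88854600 (minus strand) for GLUD1, chr16:58768196-58768220 (minus strand) for GOT2, chr7:75677424-75677448 (plus strand) for MDH2, chr10:101190357-101190381 (minus strand) for GOT1 and chr2:63816097-63816121 (plus strand) for MDH1. GLUD1 alone of the 9 matched the TOP motif, as did 538 (4.15%) of 12973 tested genes with an annotated start, and GLUD1, GOT2 and MDH2 matched the TOP-like run, as did 1831 (14.1%). At the RefSeq starts of GRCh38.p14, found for 8 of the 9 members, the transcript of ME2 also began with a TOP motif. An annotated start is not a mapped start in these cells, and the matches describe letters only.

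The RF libraries held 278835 to 1574723 counts and the total RNA libraries 78081241 to 94293744. The 9 genes took 0.0704% to 0.103% of the RF counts and 0.104% to 0.107% of the total RNA counts. Values are counts per 1e6 counts of a library (CPM) scaled by TMM, a factor that evens out library composition. A gene with no read could still have had up to 3 counts (the 95% limit), which came to 2.05 CPM in the deepest RF library (DMSO 3), 9.08 in DMSO 1 and 9.80 in rapamycin 3. The biological coefficient of variation was 54.9% in RF and 5.31% in total RNA, so RF was the noisier side. It was 24.4% in the joint fit for TE, which used a single spread per gene for both library types. Standard errors in TE can therefore be smaller than in RF alone, as for GLUD1 (0.24 against 0.39), and TE calls need that caution. Total RNA of DMSO 1 and DMSO 2 held reads of 16840 and 16858 genes against 19751 to 19847 in the other 4 libraries. The labels give the cell type as pancreatic duct, and the duct keratins KRT8, KRT18 and KRT19 had means of 3549, 2053 and 2161 CPM in total RNA and SOX9 86.0 CPM, while EPCAM had 7.85 CPM, KRT7 6.02 CPM and CFTR was near 0 at 0.333 CPM. Acinar markers summed to at most 0.743 CPM and islet markers to at most 0.579. Leukocyte markers summed to 106 to 123 CPM, of which CD68 gave 111 on average and PTPRC 0.398, and stromal and endothelial markers to at most 7.44.

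No member passed the test for a change in RF, in total RNA or in translation efficiency (TE, RF relative to total RNA) by the quasi-likelihood test of edgeR after Benjamini-Hochberg adjustment, in which 0% of the 13329 genes were called in each comparison. The smallest adjusted p of any gene in that test was 0.180 for TE, 0.0509 for RF and 0.766 for total RNA. GLUD1 had 1.51-fold higher TE after rapamycin, with rapamycin cultures all above DMSO cultures, and GOT2 and MDH1 had the lower estimates that came closest to the threshold. The transcripts themselves stayed within narrow bounds, with estimates between -0.09 and 0.07 on the log2 scale. In bulk libraries such as these, fewer cells expressing a gene and less RNA per cell cannot be told apart.

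At an unadjusted p under 0.05, edgeR's test called 1 member in TE (GLUD1), against 12.6% of all genes, and 0 members in RF and in total RNA, against 3.68% and 5.82%. The fitted TE change was below 0 for 6 of 9 members, against 53.7% of all genes, with a median of -0.30 on the log2 scale over the members and -0.06 over all genes. For RF it was below 0 for 7 of 9 (48.7% of all genes), with medians of -0.29 and 0.02. DESeq2's Wald test put 3 members past an adjusted p of 0.05 in TE: GOT2 and MDH1 lower, as 4.61% of all genes were, and GLUD1 higher, as 5.21% were. It put 0 members past that threshold in RF alone, where 0.0075% of all genes were called lower and 0.03% higher, or in total RNA alone, where 0.03% and 0.188% were. In limma's voom with quality weights by library type, GOT2, MDH1 and GLUD1 had adjusted p of 0.857, 0.838 and 0.784 in TE. The 3 calls therefore depend on the test, and they are given beside edgeR's values below.

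**Figure D1:**
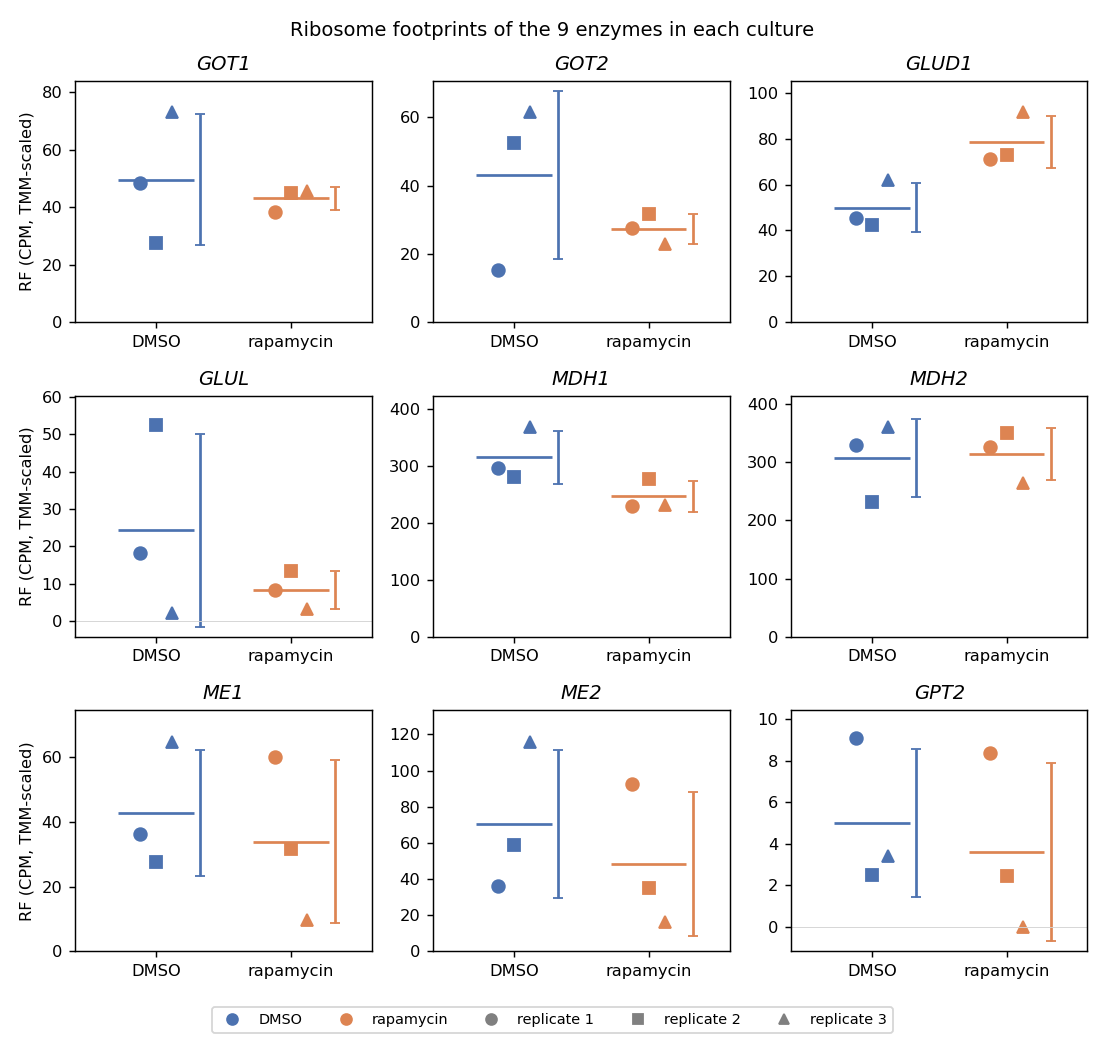
RF level (CPM, vertical axis starting at or below 0, a separate scale for each gene) of the 9 members in each DMSO and rapamycin culture. Horizontal lines are means, vertical bars 1 SD on either side (n = 3) and marker shapes the replicate number; GLUD1 is the gene whose rapamycin cultures, 71.0 to 91.5 CPM, all lie above DMSO, and in MDH1 they lie below by a narrow margin.

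The aminotransferases GOT1 and GOT2 exchange amino groups between aspartate and glutamate on either side of the mitochondrial inner membrane. GOT1 lies on the minus strand at chr10:101156627-101190381 (GRCh37). Its RF level was 48.4, 27.5 and 73.0 CPM in DMSO replicates 1, 2 and 3 and 38.4, 45.0 and 45.8 CPM in rapamycin replicates 1, 2 and 3, from 14 to 107 reads. Rapamycin cultures fell between the lowest and the highest DMSO culture. The TE change was -0.23 on the log2 scale (SE 0.40, 95% interval -1.09 to 0.63), with an adjusted p of 0.851 in edgeR's test, and it went from -0.64 without DMSO 2 to 0.29 without DMSO 3.

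GOT2 lies on the minus strand at chr16:58741035-58768246, and 15.6% of the 30-base words of its coding sequence also occur in other annotated genes, chiefly the pseudogene GOT2P2. It drew 5, 42 and 90 RF reads in DMSO replicates 1, 2 and 3 and 33, 26 and 7 in the rapamycin replicates. Scaled, this was 15.1, 52.5 and 61.4 CPM against 27.6, 31.6 and 22.9 CPM. The rapamycin values were tightly grouped and below DMSO 2 and DMSO 3, but above DMSO 1, the second smallest RF library, where 5 reads set the level. Mean RF was 43.0 ± 24.5 CPM in DMSO and 27.4 ± 4.38 CPM in rapamycin (SD, n = 3). The fitted TE change was -0.77 (SE 0.45, interval -1.73 to 0.18), with an adjusted p of 0.496 in edgeR's test and 0.0121 in DESeq2's Wald test, whose estimate was -0.88. Over leaving out each culture in turn, edgeR's estimate ranged from -1.02 to -0.52 and its adjusted p from 0.285 to 0.726. The study itself names GOT2 for a TE change in these libraries, so its direction here is not independent evidence. Total RNA of GOT2 was 62.4 ± 3.40 CPM in DMSO and 61.8 ± 1.72 CPM in rapamycin.

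The malate dehydrogenases were the most footprinted of the 9 enzymes, which makes them the most precisely measured. MDH1, the cytosolic form, lies on the plus strand at chr2:63815743-63834331. It had 296, 280 and 368 CPM of RF in DMSO replicates 1, 2 and 3 against 230, 277 and 232 CPM in rapamycin, from 71 to 540 reads. Every rapamycin culture was lower than every DMSO culture, as in 3.98% of all genes, but rapamycin 2 and DMSO 2 differed by 277 against 280 CPM. In TE the groups overlapped, with log2 TE of 0.56, 0.41 and 0.88 in DMSO and 0.20, 0.54 and 0.30 in rapamycin (two-sided exact permutation test, p = 0.2, where 0.1 is the smallest possible for 3 against 3). Here log2 TE is log2 CPM of RF minus log2 CPM of total RNA, each with a prior count of 2 added before the logarithm. For a gene with many reads, 0 means that it took the same share of both libraries. The prior count weighs more in the smaller RF libraries, so it raises log2 TE where RF reads are few. The fitted TE change of MDH1 was -0.31 (SE 0.19, interval -0.73 to 0.10), with an adjusted p of 0.531 in edgeR's test and 0.0419 in DESeq2's Wald test.

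MDH2, the mitochondrial form, lies on the plus strand at chr7:75677369-75696826. Its RF level was 330, 231 and 360 CPM in DMSO and 326, 350 and 265 CPM in rapamycin, from 81 to 528 reads. The groups overlapped almost fully, with means of 307 ± 67.4 and 314 ± 44.1 CPM. Its TE change was 0.05 (SE 0.22, interval -0.42 to 0.52) (edgeR's test, adjusted p = 0.948). MDH2 carries a TOP-like run at its annotated start and MDH1 does not.

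The malic enzymes turn malate into pyruvate. ME1, the cytosolic form, lies on the minus strand at chr6:83920121-84140770, and ME2, the mitochondrial form, on the plus strand at chr18:48405450-48480627. RF of ME1 was 36.3, 27.5 and 64.8 CPM in DMSO and 60.1, 31.6 and 9.80 CPM in rapamycin, the last from 3 reads. RF of ME2 was 36.3, 58.8 and 116 CPM in DMSO and 92.7, 35.3 and 16.3 CPM in rapamycin, the last from 5 reads. Both genes were highest in the deepest RF library of each group, DMSO 3 (1574723 counts) and rapamycin 1 (1255675 counts), and lowest of all in rapamycin 3 (278835 counts); the part of library depth in this was not tested. The TE spread within groups of ME2, 1.02 on the log2 scale, stood at the 93.1 percentile of 1647 genes with a like number of RF counts, and that of ME1, 0.95, at the 82.7 percentile of 2370. The TE change was -0.30 for ME1 (SE 0.54, edgeR's test, adjusted p = 0.858) and -0.49 for ME2 (SE 0.57, adjusted p = 0.763). Without DMSO 3 the estimates became 0.40 and 0.11, and without rapamycin 1 they became -1.002 and -1.40.

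GLUD1, the mitochondrial glutamate dehydrogenase, which releases ammonia from glutamate to give 2-oxoglutarate, lies on the minus strand at chr10:88809959-88854600. Its RF level was 45.4, 42.5 and 62.1 CPM in DMSO replicates 1, 2 and 3 and 71.0, 73.0 and 91.5 CPM in rapamycin, from 15 to 91 reads. All rapamycin cultures were higher than all DMSO cultures, as in 5.41% of all genes. The same held for log2 TE, which was -2.41, -2.54 and -1.95 in DMSO and -1.77, -1.68 and -1.39 in rapamycin (two-sided exact permutation test, p = 0.1, the smallest possible; 5.11% of all genes separated this way and 5.72% in the opposite direction). Total RNA was 255 ± 5.88 CPM in DMSO and 246 ± 4.70 CPM in rapamycin. The fitted TE change was 0.60 (SE 0.24, interval 0.07 to 1.12), with an unadjusted p of 0.0287 and an adjusted p of 0.343 in edgeR's test and an adjusted p of 0.0400 in DESeq2's Wald test, whose estimate was 0.49. Over leaving out each culture in turn, edgeR's estimate ranged from 0.43 to 0.81. GLUD1 was the member with the TOP motif in the sequences above, and its TE estimate was higher after rapamycin.

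The assignment of reads to GLUD1 is less certain than for the other members. Of the 30-base words of its coding sequence, 59.7% also occur in other annotated genes, 56.4% in its intronless copy GLUD2, and the authors kept uniquely aligned reads only. GLUD2 itself had 39.1 ± 28.3 CPM of RF in DMSO and 32.2 ± 5.22 in rapamycin, beside 8.36 ± 0.791 and 8.63 ± 0.389 CPM of total RNA. Its TE change was -0.02 (SE 0.42, edgeR's test, adjusted p = 0.990). GLUD1's exons also overlap those of SHLD2 on the opposite strand, and whether counting used strand is not given in the sources used here. What these overlaps contribute to the GLUD1 values was not tested.

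GLUL, glutamine synthetase, runs in the opposite direction to glutaminase and makes glutamine from glutamate and ammonia; it lies on the minus strand at chr1:182347233-182361341. It was counted 6, 42 and 3 times in DMSO replicates 1, 2 and 3 and 10, 11 and 1 times in the rapamycin replicates. The RF level was thus 18.2, 52.5 and 2.05 CPM in DMSO and 8.35, 13.4 and 3.27 CPM in rapamycin. The rapamycin values lay inside the DMSO range, which itself spanned 25.7-fold and rested on DMSO 2. Its TE change was -1.01 (SE 0.88, interval -2.90 to 0.87; edgeR's test, adjusted p = 0.676). Without DMSO 2 the estimate was 0.99, and without DMSO 3 it was -2.11 with an adjusted p of 0.0470 in edgeR's test, so its direction turned on single libraries. GLUL shares 25.4% of its coding 30-base words with other annotated genes, chiefly the pseudogene GLULP4.

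GPT2, the mitochondrial alanine aminotransferase, lies on the plus strand at chr16:46918274-46965201 and had 22 RF reads in all. They fell as 3, 2 and 5 in DMSO and 10, 2 and 0 in rapamycin, or 9.08, 2.5 and 3.41 CPM and 8.35, 2.43 and 0 CPM, where 0 reads in rapamycin 3 allow up to 9.80 CPM. The groups overlapped, and no difference was detectable at this depth. The fitted TE change was 0.39 (SE 0.78, interval -1.28 to 2.06; edgeR's test, adjusted p = 0.871), while the difference of the mean log2 TE over cultures, rapamycin minus DMSO, was -0.45.

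**Figure D2:**
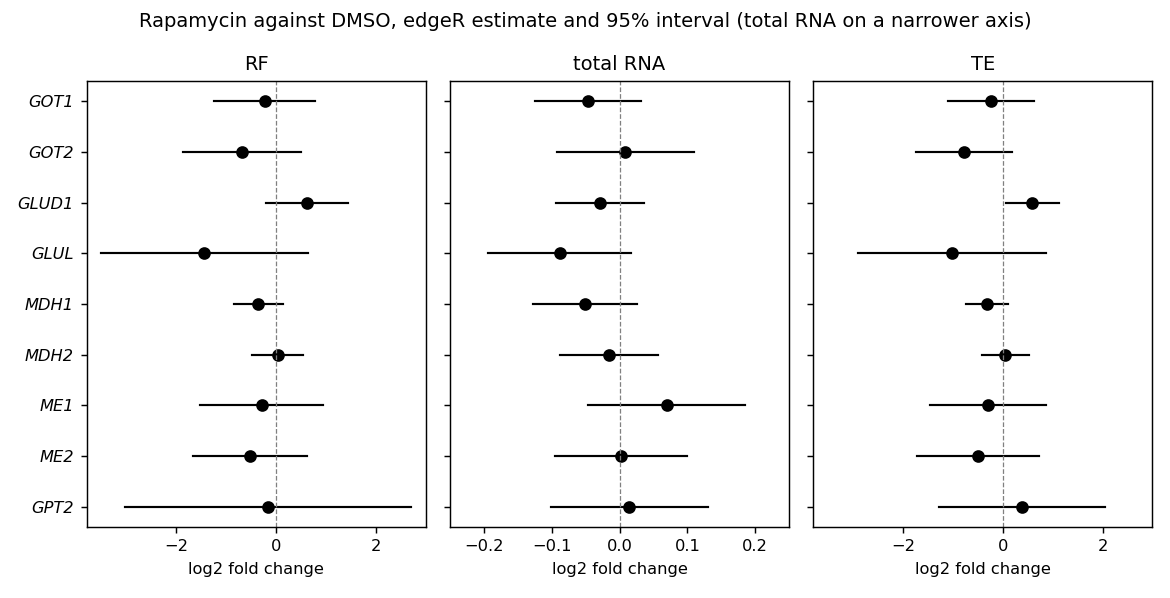
Log2 fold change of rapamycin against DMSO in RF, total RNA and TE for the 9 members (points, edgeR estimates; lines, 95% intervals). The total RNA axis is narrower than the others. Intervals in RF all include 0, that of GLUD1 being -0.20 to 1.44. The GLUD1 interval in TE, 0.07 to 1.12, does not include 0, and it comes from a fit with a single spread per gene for both library types. Before adjustment for the 13329 genes tested, GLUD1 is the member with p under 0.05 in TE.

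Total RNA was the well-measured side of each ratio, with 1059 to 26964 reads per member and library. GOT1 had 74.5, 78.1 and 74.6 CPM in DMSO and 72.8, 69.8 and 74.1 CPM in rapamycin. GLUL had 39.9, 40.1 and 40.3 CPM in DMSO and 38.4, 34.3 and 38.8 CPM in rapamycin. In these 2 members every rapamycin library was lower than every DMSO library, as in 10.7% of all genes, and the other 7 overlapped. The estimates were -0.05 (SE 0.03, adjusted p = 0.766) for GOT1 and -0.09 (SE 0.05, adjusted p = 0.766) for GLUL in edgeR's test. Over the 9 members, 5 estimates were below 0 and 4 above, and the 95% intervals ran from -0.19 for GLUL to 0.19 for ME1. Leaving out each culture in turn, DMSO 1 and DMSO 2 included, kept all 9 estimates between -0.12 and 0.11.

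Levels between genes can be compared only per length. In total RNA, in FPKM as deposited (mean ± SD, n = 3), MDH1 had 143 ± 2.62 in DMSO, MDH2 124 ± 8.47, GLUD1 83.5 ± 1.84 and GOT1 39.7 ± 1.05. Lower were ME2 at 34.3 ± 1.86, GOT2 at 22.2 ± 0.986, GLUL at 21.1 ± 2.001, ME1 at 15.1 ± 0.631 and GPT2 at 3.47 ± 0.287. GOT2 and GLUL differed by less than the spread, and the other neighbours by more. Of RF per kilobase of coding sequence, MDH1 and MDH2 had 314 ± 46.9 and 303 ± 66.4 CPM, ME2 48.9 ± 28.6, GOT1 40.1 ± 18.4, GOT2 33.3 ± 19.0, GLUD1 29.9 ± 6.31, ME1 24.98 ± 11.4, GLUL 21.7 ± 23.0 and GPT2 3.18 ± 2.27. Apart from the gap between MDH2 and ME2, neighbours in that order were within their SDs. GLUD1, 59.7% of whose coding 30-base words occur in other genes, was the third highest in total RNA and the sixth in RF.

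The same contrast showed in TE before treatment. Mean log2 TE in DMSO was 0.62 ± 0.24 for MDH1, 0.12 ± 0.33 for MDH2, 0.01 ± 0.62 for ME1, -0.56 ± 0.81 for ME2, -0.64 ± 0.70 for GOT1 and -0.66 ± 1.01 for GOT2 (SD, n = 3). It was -0.96 ± 0.67 for GPT2, -1.22 ± 1.83 for GLUL and -2.30 ± 0.31 for GLUD1. GPT2 and GLUL had the fewest RF reads, so the prior count raised their values most, and their order is not firm. The means placed MDH1 at the 72.8 percentile of all tested genes and GLUD1 at the 8.16 percentile. Only uniquely aligned reads were counted, and 59.7% of GLUD1's coding 30-base words occur in other genes. What this contributes to the low TE of GLUD1 was not tested. Reads of total RNA come from whole transcripts and footprints mostly from the coding part, which was 1002 of 1296 bases in the MDH1 isoform and 1674 of 3300 in that of GLUD1, so TE levels of different genes also carry this difference. Of the neighbours in the order, MDH1 stood above MDH2 in 3 of 3 DMSO cultures and 5 of 6 in all, and ME1 above ME2 in 3 of 3 and 6 of 6. The other neighbours changed places between DMSO cultures.

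**Figure D3:**
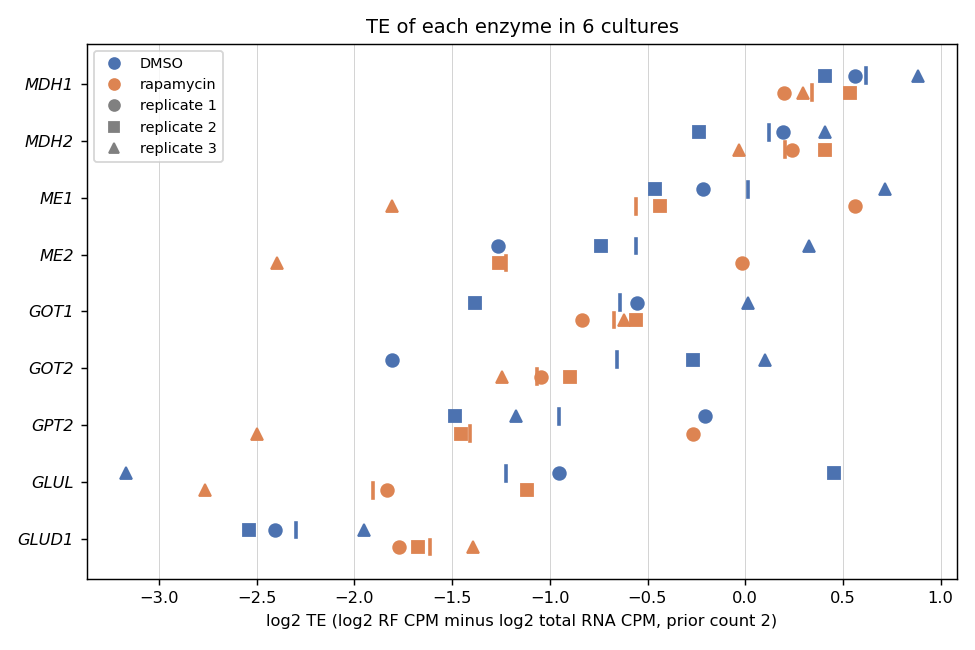
Log2 TE (horizontal axis) of each member in the 6 cultures, ordered by the DMSO mean. Vertical ticks are group means and marker shapes the replicate number. GLUD1 is at the bottom in DMSO, between -2.54 and -1.95, with its rapamycin cultures to the right of these, while GLUL, ME1, ME2 and GPT2 are spread widely within groups.

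Where an enzyme has a cytosolic and a mitochondrial form, the ratio of the pair within a library needs no scaling between libraries. The log2 ratio of MDH2 to MDH1 reads in RF was 0.15, -0.27 and -0.03 in DMSO replicates 1, 2 and 3 and 0.50, 0.33 and 0.19 in rapamycin. All rapamycin cultures were above all DMSO cultures, by 0.39 on average (two-sided exact permutation test, p = 0.1, the smallest possible; 0.6 after adjustment over the 6 ratios tested). In total RNA the same ratio was 0.45 ± 0.08 in DMSO and 0.48 ± 0.03 in rapamycin, and the groups overlapped (exact permutation test, p = 0.5). GOT2 to GOT1 in RF was -1.36, 0.87 and -0.24 in DMSO and -0.46, -0.48 and -0.83 in rapamycin, which overlapped (exact permutation test, p = 0.7). ME2 to ME1 in RF was 0, 1.03 and 0.83 in DMSO and 0.61, 0.15 and 0.49 in rapamycin, which also overlapped (exact permutation test, p = 0.6). In total RNA those pairs differed between treatments by 0.06 and -0.07, within the spread.

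Over the 6 cultures of both treatments, the cytosolic member of each pair had the higher mean TE, uncorrected for length. ME1 was above ME2 in 6 of 6 cultures, by 1.54-fold on average, and MDH1 above MDH2 in 5 of 6, by 1.25-fold. GOT1 was above GOT2 in 4 of 6, by 1.15-fold. Mitochondrial minus cytosolic log2 TE was -0.62 ± 0.28 in the ME pair and -0.32 ± 0.24 in the MDH pair (SD, n = 6). In the GOT pair it was -0.21 ± 0.79, a difference smaller than its spread. The coding part was 1002 of 1296 bases in the MDH1 isoform and 1014 of 2170 in that of MDH2. In DMSO, mean RF per kilobase of coding sequence relative to mean FPKM had the opposite order in the MDH and GOT pairs. It had the same order in the ME pair, so the order of the means changed with the treatment of length in the MDH and GOT pairs. No spread was computed for these ratios, and RF per kilobase overlapped within SDs in each pair. Which member is higher per length is therefore not settled. The MDH1 length is that of an isoform with 61.5% of the FPKM found in the annotation, itself 29.2% of the gene's. Of ME2's coding 30-base words 15.1% are shared, all with the pseudogene ME2P1, and of ME1's none. GOT2 shares 15.6% of such words with other genes and GOT1 none.

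**Figure D4:**
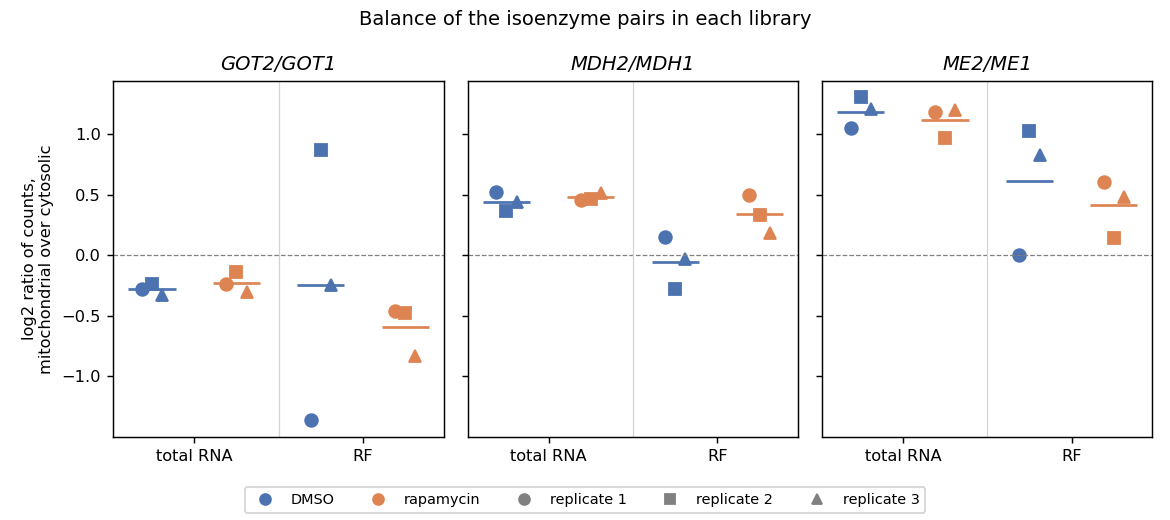
Log2 ratio of mitochondrial to cytosolic reads (vertical axis) for the GOT, MDH and ME pairs in each library, total RNA on the left and RF on the right of each panel, with horizontal lines at group means and marker shapes for the replicate number. In RF, the 3 rapamycin ratios of MDH2 to MDH1 (0.19 to 0.50) are above the 3 DMSO ratios (-0.27 to 0.15), whereas the RF ratios of GOT2 to GOT1 range from -1.36 to 0.87 within DMSO.

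Around these enzymes, 47 further genes of the pathway were examined: mitochondrial carriers, other enzymes of glutamine, glutamate and aspartate, and plasma membrane transporters. Of these, 44 were tested. None passed an adjusted p of 0.05 in edgeR's test in TE, RF or total RNA, and 5 had an unadjusted p under 0.05 in TE, against 12.6% of all genes, 3 of them lower and 2 higher. The TE estimate was below 0 for 20 (53.7% of all genes) and above 0 for 24, with a median of 0.03 (-0.06 over all genes). DESeq2's Wald test called 8 of the 44 in TE at an adjusted p under 0.05, among them the carriers SLC25A12 and SLC25A22. Of all genes it called 4.61% lower and 5.21% higher. By group, the 7 carriers had 3 estimates lower and 4 higher, the 32 enzymes 17 and 15, and the 5 transporters 0 and 5.

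SLC25A12 and SLC25A22 bring glutamate into mitochondria, the first in exchange for aspartate as part of the malate-aspartate shuttle. SLC25A22 had 54.5, 90.0 and 83.2 CPM of RF in DMSO and 32.6, 53.5 and 35.9 CPM in rapamycin. Each rapamycin culture was lower than each DMSO culture, as in 3.98% of all genes. SLC25A12 had 57.5, 18.8 and 35.5 CPM against 11.7, 20.7 and 0 CPM, which overlapped. The TE changes of SLC25A22 and SLC25A12 were -0.91 (SE 0.33) and -1.26 (SE 0.47). Their adjusted p were 0.289 and 0.303 in edgeR's test and 0.00118 and 0.00259 in DESeq2's Wald test. Of the other carriers examined, SLC25A13 had a TE change of 0.28 (SE 0.39) and SLC25A11 of -0.07 (SE 0.65). GAD1, glutamate decarboxylase, had 3, 5 and 11 RF reads in DMSO and 0, 1 and 2 in rapamycin, too few for a firm estimate. Its TE change was -2.56 (SE 0.87), with an adjusted p of 0.269 in edgeR's test and 0.0415 in DESeq2's Wald test, and it ranged from -3.95 without rapamycin 3 to -1.50 without rapamycin 1.

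On the higher side, PYCR1, which makes proline on the route that starts from glutamate, had 42.4, 62.5 and 68.9 CPM of RF in DMSO and 96.9, 91.2 and 131 CPM in rapamycin. Every rapamycin culture was above every DMSO culture, as in 5.41% of all genes. Its TE change was 0.78 (SE 0.28), with an adjusted p of 0.285 in edgeR's test and 0.00512 in DESeq2's Wald test. ASRGL1, an asparaginase, had a TE change of 1.56 (SE 0.65, edgeR's test, adjusted p = 0.346) from 0 to 16 reads per library, and of 3.21 without DMSO 3. FPGS, which adds glutamate residues to folates, had 9, 1 and 26 RF reads in DMSO and 51, 38 and 3 in rapamycin, and the RF levels overlapped. Its TE change was 1.44 (SE 0.67, edgeR's test, adjusted p = 0.395), and it ranged from 0.98 without DMSO 2 to 2.10 without DMSO 3.

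In total RNA the smallest p of these genes belonged to SLC38A2, a plasma membrane glutamine transporter. It had 765, 764 and 759 CPM in DMSO and 837, 793 and 820 CPM in rapamycin, so all rapamycin libraries were higher, as in 6.67% of all genes. The change was 0.12 on the log2 scale (SE 0.03), with an unadjusted p of 0.00204 and an adjusted p of 0.766 in edgeR's test and an adjusted p of 0.00542 in DESeq2's Wald test. GFPT2, which uses glutamine to make glucosamine 6-phosphate, had a change of 0.13 (SE 0.05) and SLC7A11, the cystine and glutamate exchanger, 0.07 (SE 0.04). ADSS and ADSL, of the purine steps that use aspartate, and SLC25A12 had the smallest p among lower estimates, at -0.10, -0.05 and -0.06, each with an adjusted p of 0.766 in edgeR's test.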

How the data were processed

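The authors trimmed and quality-filtered the RF reads and discarded ribosomal RNA. HISAT2 alignments to GRCh37 that were unique were counted by featureCounts over protein-coding exons, and these raw counts were deposited for both library types. FPKM per gene and isoform was made by the authors with Cuffnorm (Cufflinks 2.2.1). Their columns of TE, p-values and adjusted p-values were not used.

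A gene entered the tests with a sum of at least 10 RF counts and at least 10 RNA counts. The main test was that of edgeR 4.0.16 (R 4.3.3; quasi-likelihood, robust, TMM within each library type). TE changes were read from the library type by treatment interaction, since RiboDiff, used by the study, was not available, and p-values were adjusted by Benjamini-Hochberg over all genes tested. DESeq2 1.42.0 and limma 3.58.1 were alternatives, beside other filters, other scalings, replicate blocks and leaving out each culture. Log2 TE per culture and isoenzyme ratios used a prior count of 2 and two-sided exact permutation tests. Fits were tested on simulated counts. Genes were matched by Ensembl identifier to an annotation of GRCh37 whose version differs from the authors', and by symbol to RefSeq starts. For MDH1, ME1, GLUD1 and GOT1 the isoforms found in that annotation held 29.2%, 58.5%, 81.4% and 97.8% of the gene's FPKM, and for the other 5 members all of it. Intervals are those of the edgeR fit and include the spread between cultures, which in TE is a single spread per gene for both library types. The limit for a count of 0 covers counting error only, since reads carry no molecular identifiers.

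The members and gene lists were chosen with earlier results of these data known. Named genes are all members and, of the 47 pathway genes, those past the threshold (there were 0). Also named are the 3 with the smallest p in each direction in TE and in total RNA. GLUD2, SLC25A11 and SLC25A13 were added after their values were seen. No 2 libraries of a group were alike within sampling noise. Same-numbered DMSO and rapamycin libraries did not deviate together (r from -0.23 to -0.08 across genes), so numbers were not taken as pairs between treatments. RF and total RNA with the same culture number did not deviate together either (r from -0.072 to 0.031). Log2 TE per culture joins these by their labels alone. A single-gene marker result is not reported here.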

Additional observations from a re-analysis of the deposited data

How the results depend on the processing

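The counts of genes past an adjusted p of 0.05 were 0 in edgeR's test in TE, RF and total RNA. DESeq2's Wald test called 588 genes lower and 665 higher in TE, 3 members among them (GOT2, GLUD1 and MDH1), 1 lower and 4 higher in RF, and 4 lower and 25 higher in total RNA. At an unadjusted p under 0.05, edgeR's test called 1679 genes in TE, 490 in RF and 776 in total RNA. A filter of at least 1 count gave 10 lower and 10 higher in RF, and the replicate block 2 lower and 4 higher in RF; the block called 0 in TE and changed no member's call. On log2(FPKM + 1) values of total RNA, limma-trend called 3 lower and 1 higher, with a pseudocount of 0.1 it called 2 and 1, and with no minimum FPKM 3 lower. Leaving out each culture gave 0 to 331 genes lower and 0 to 65 higher in TE, with 0 to 1 members called (GLUL, -2.11, without DMSO 3), 0 to 1 lower and 0 to 5 higher in RF, and 0 to 4 lower and 0 to 683 higher in total RNA; the highest counts in TE and total RNA came without DMSO 3. The causes were not tested.

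Some member estimates changed sign, none of them past a threshold. In TE, MDH2 was -0.026 with TMM over all 12 libraries, GLUL and GPT2 were 0.072 and -0.072 in voom with quality weights, and GPT2 was -0.22 with the replicate block by culture. Without the 2 cultures with the smallest RF libraries, chosen after seeing the data, GPT2 was 0.84 in RF and 0.50 in log2 TE per culture, and MDH2, ME2 and GPT2 were 0.012, -0.051 and -0.015 in total RNA. With at least 1 count, GOT2, ME2 and GPT2 were -0.0081, -0.014 and -0.0020 in total RNA.

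Leaving out each culture in turn also turned the direction of the following. For the TE change, the range was GOT1 from -0.64 to 0.29, GLUL from -2.11 to 0.99, MDH2 from -0.12 to 0.18, ME1 from -1.002 to 0.40, ME2 from -1.40 to 0.11 and GPT2 from -1.16 to 0.77. For the RF change, the range was GOT1 from -0.55 to 0.17, GLUL from -2.04 to 0.030, MDH2 from -0.15 to 0.13, ME1 from -0.97 to 0.13, ME2 from -1.40 to 0.018 and GPT2 from -1.47 to 0.44. For the total RNA change, the range was GOT2 from -0.018 to 0.051, MDH2 from -0.030 to 0.0079, ME2 from -0.029 to 0.042 and GPT2 from -0.0031 to 0.041. For log2 TE per culture, the range was GOT1 from -0.41 to 0.27, GLUL from -1.63 to 0.15, MDH2 from -0.11 to 0.20, ME1 from -1.16 to 0.051 and GPT2 from -0.99 to 0.096. For the isoenzyme ratios, the range was GOT2/GOT1 in RF from -0.90 to 0.22, MDH2/MDH1 in total RNA from -0.0037 to 0.074, ME2/ME1 in RF from -0.51 to 0.0012 and ME2/ME1 in total RNA from -0.14 to 0.0056.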
